A study of Mus musculus with 6 samples.

Results

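The genes described here are 6 enzymes of cholesterol synthesis (Hmgcs1, Idi1, Fdft1, Sqle, Lss and Dhcr7) and Insig1, the feedback regulator that they share. They were taken by name, as all array probes other than controls whose gene name in the scanner files was one of the 7. This gave 15 of the 41174 probes, and 8 of the 15 lay among the 20000 probes with the highest median signal that were tested. Each of the 7 genes had at least 1 tested probe, and a gene was read from its brightest. None of the 7 is an uptake gene, and uptake was read from a wider list.

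RNA came from hearts of male mice on a C57BL6/J background, all 12 weeks old. The 3 TG-PKR1 (TG) mice overexpressed prokineticin receptor 1 (PKR1), a G protein-coupled receptor, from the alpha myosin heavy chain promoter, which is active in cardiomyocytes. The 3 WT mice carried no transgene, and each heart was hybridized alone to a one-color Agilent array. The comparison asked whether the cardiomyocyte receptor was accompanied by another level of the sterol genes, and whether these genes moved together over the 6 hearts.

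Cholesterol is built from acetyl-CoA through mevalonate, isoprenoid units, squalene and lanosterol. The transcription factor SREBP2 drives most of these enzymes as one program. When sterols are scarce, SCAP escorts SREBP2 from the endoplasmic reticulum to the Golgi, where proteases release its active part, and when sterols are plentiful INSIG1 holds SCAP and SREBP2 back. Insig1 is itself a target of SREBP, so its transcript often rises and falls with those of the enzymes. SREBP1 mainly drives fatty acid synthesis.

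The promoters show what these genes share in sequence. RefSeq promoters (GRCm38.p6) were matched for 5 of the 7 genes, Hmgcs1, Idi1, Lss, Dhcr7 and Insig1, and not for Fdft1 and Sqle. The 250 bases before the start were searched on both strands for TCACNCCAC, the letters of a sterol regulatory element, and for CCAAT, the box bound by NF-Y, a partner of SREBP. The 2 motifs do not overlap each other in the matches found. The 4 promoters below belong to the genes whose heart-to-heart patterns are set side by side further on, with matched bases in capitals (ATTGG is CCAAT read on the other strand).
Hmgcs1, chr13:119690101-119690350, plus strand: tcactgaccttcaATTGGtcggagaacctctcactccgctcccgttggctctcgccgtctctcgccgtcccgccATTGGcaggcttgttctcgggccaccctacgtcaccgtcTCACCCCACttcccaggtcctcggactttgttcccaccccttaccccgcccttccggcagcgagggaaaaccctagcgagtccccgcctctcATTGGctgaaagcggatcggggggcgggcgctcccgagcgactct
Insig1, chr5:28071162-28071411, plus strand: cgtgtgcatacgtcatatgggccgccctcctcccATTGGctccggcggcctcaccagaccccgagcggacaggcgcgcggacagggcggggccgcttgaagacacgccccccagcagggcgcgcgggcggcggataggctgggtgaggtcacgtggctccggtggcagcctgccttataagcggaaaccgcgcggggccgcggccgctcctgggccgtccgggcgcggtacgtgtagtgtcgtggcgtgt
Idi1, chr13:8885356-8885605, plus strand: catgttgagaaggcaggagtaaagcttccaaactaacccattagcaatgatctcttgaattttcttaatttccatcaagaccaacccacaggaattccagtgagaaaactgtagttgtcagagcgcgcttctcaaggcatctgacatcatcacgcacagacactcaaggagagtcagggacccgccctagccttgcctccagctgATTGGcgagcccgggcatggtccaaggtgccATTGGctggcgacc
Dhcr7, the third of 3 listed starts, chr7:143829964-143830213, plus strand: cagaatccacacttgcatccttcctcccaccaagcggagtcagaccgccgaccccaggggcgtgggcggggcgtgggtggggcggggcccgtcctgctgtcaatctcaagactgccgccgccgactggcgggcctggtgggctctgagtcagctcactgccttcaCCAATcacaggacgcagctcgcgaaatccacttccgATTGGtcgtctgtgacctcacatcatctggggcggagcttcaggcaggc
The letters TCACNCCAC stood in the Hmgcs1 promoter, 137 bases before the start, and not in the windows of the other 4 genes. Of 32851 promoters of this length, 1.05% held them. CCAAT stood 3 times in the Hmgcs1 window, 2 times in that of Idi1 and in the third of Dhcr7, and 1 time each in those of Lss and Insig1. The first and second Dhcr7 windows held 0. Of all promoters, 33.8% held at least 1. A match is a description of these letters and not a measured binding site.

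Signals were close to background on part of the arrays. The arrays of WT replicate 1, TG replicate 2 and TG replicate 3 were scanned with an extended range, and their 75th percentile signal was 11.4 to 14.1 times the local background, against 2.08 to 3.97 times on the 3 single-scan arrays. Of the 5 slides used, 1 held a heart of each group (WT replicate 2 with TG replicate 1). The probe for Prokr1, which encodes PKR1, was well above background on 0 of 6 arrays, so it does not check the labels. The files give no pairing of mice, so p-values measure the spread between these hearts only.

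None of the 7 genes was called different between TG and WT hearts. By limma with Benjamini-Hochberg adjustment over the 20000 probes, 0 of 7 passed an adjusted p of 0.05 in either direction, with an adjusted p of 0.9999 each. At an unadjusted limma p under 0.05 it was also 0 of 7, and SAM (significance analysis of microarrays) at an estimated false discovery rate of 0% called 0. Over all 20000 probes limma called 0.0950% lower and 0% higher in TG hearts, and 1.66% were lower and 0.715% higher at the unadjusted p. SAM called 0.281% of complete probes lower. The values given below for each heart are normalized log2 signals without background subtraction, which narrows the differences of dim probes. All 8 tested probes were well above background on every array.

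**Figure D1:**
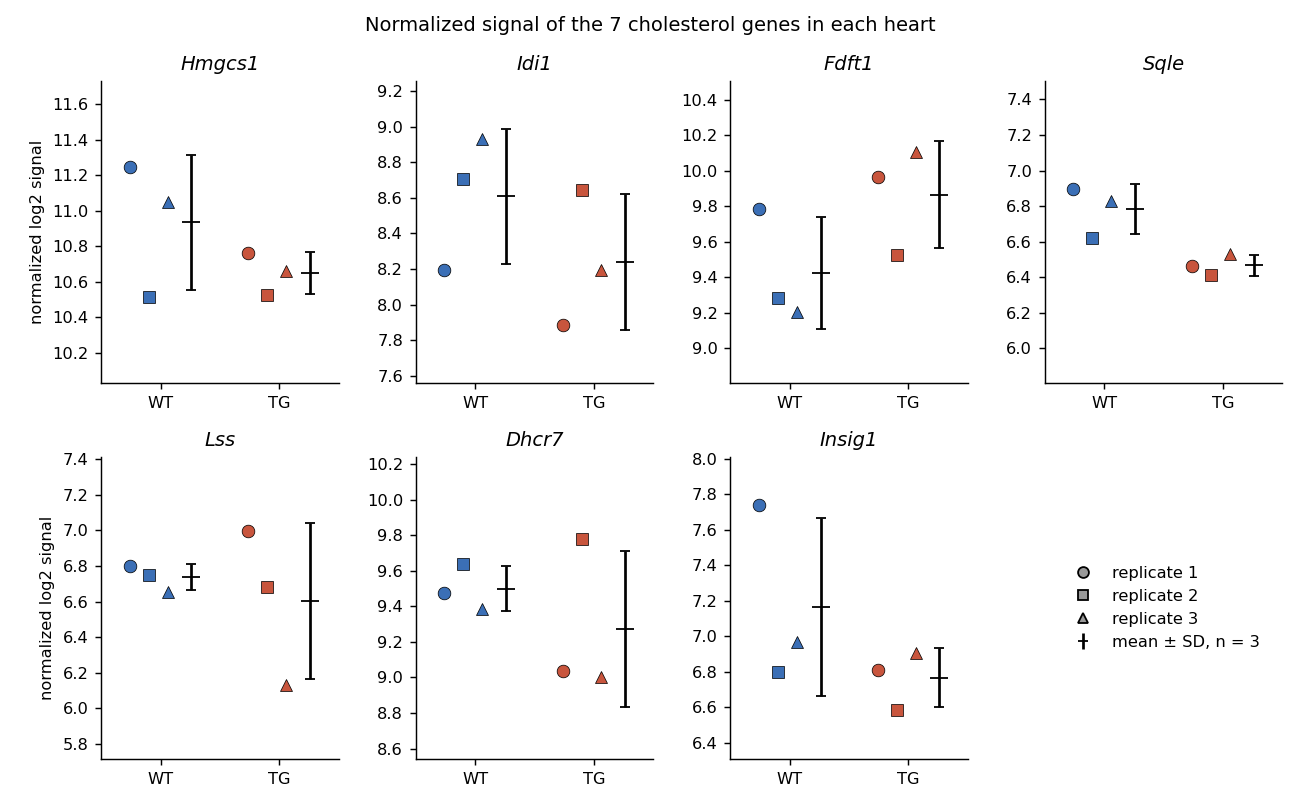
Normalized log2 signal (vertical axis, the same span of 1.7 in every panel) of the brightest probe of each of the 7 genes in 3 WT (blue) and 3 TG (red) hearts, with the mean and SD of each group beside the points. Sqle is the panel in which the 3 TG hearts, at 6.41 to 6.53, lie below the 3 WT hearts, at 6.62 to 6.90.

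Hmgcs1 makes HMG-CoA at the head of the mevalonate arm. Its brightest probe, A_51_P146941 (mm8, chr13_random, 114807 to 114866), read 11.25, 10.51 and 11.05 in WT replicates 1, 2 and 3, and 10.76, 10.53 and 10.66 in TG replicates 1, 2 and 3. WT replicate 2 was the lowest of all 6 hearts, so the groups overlapped, and the WT hearts spread more widely (SD 0.38, n = 3) than the TG hearts (SD 0.12, n = 3). The TG mean was 0.29 lower on the log2 scale (limma SE 0.21, 95% interval -0.76 to 0.18, adjusted p = 0.9999; two-sided exact permutation p = 0.4). With 3 hearts a group, 0.1 is the smallest p that the exact test can give. The difference was -0.13 without WT replicate 1 and -0.50 without WT replicate 2, and on the slide that held a heart of each group it was 0.25.

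Idi1 interconverts the 2 isoprenoid units from which longer chains are built. Probe A_51_P329711, which the files place at chr2:53516550-53516609 in mm8 although RefSeq lists the Idi1 promoter on chromosome 13, read 8.19, 8.71 and 8.93 in WT hearts and 7.88, 8.65 and 8.19 in TG hearts. WT replicate 1 and TG replicate 3 were alike, and TG replicate 2 stood with the 2 high WT hearts. The TG mean was 0.37 lower (SE 0.25, 95% interval -0.94 to 0.21, limma adjusted p = 0.9999; exact permutation p = 0.3), a fold of 1.29 in size. Leaving out single hearts gave -0.58 without WT replicate 1, -0.57 without TG replicate 2, -0.21 without WT replicate 3 and -0.19 without TG replicate 1.

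Fdft1, squalene synthase, joins 2 farnesyl units and commits them to sterols. It was the 1 gene of the 7 with a higher TG mean. Probe A_51_P485946 (mm8, chr14, 62101042 to 62105282) read 9.79, 9.29 and 9.20 in WT hearts and 9.97, 9.53 and 10.10 in TG hearts. TG replicates 1 and 3 exceeded all WT hearts, whereas TG replicate 2 lay below WT replicate 1. The difference was 0.44 (SE 0.22, 95% interval -0.06 to 0.94, limma adjusted p = 0.9999; exact permutation p = 0.2), a fold of 1.36.

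Sqle, squalene epoxidase, carries out the first oxygen-requiring step toward sterols and is a control point of the pathway. It was the 1 gene of the 7 in which the groups did not overlap. Probe A_51_P450487 (mm8, chr15, 59160510 to 59160569) read 6.90, 6.62 and 6.83 in WT hearts and 6.46, 6.41 and 6.53 in TG hearts. The TG mean was 0.32 lower (SE 0.15, 95% interval -0.65 to 0.02, limma adjusted p = 0.9999; exact permutation p = 0.1), or 1.25-fold in size. Of all complete probes, 2.73% had every TG heart below every WT heart and 2.68% every TG heart above, so 1 of 7 genes is a count of that kind and not a call. With loess replaced by 75th percentile scaling the Sqle difference was -0.67 (SE 0.38), and with that scaling and the scanner software's background-subtracted signal together it was -0.82 (SE 0.25). In both, limma's adjusted p was again close to 1.

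Lss, lanosterol synthase, closes the ring system of the sterols. It had 2 tested probes on chromosome 10. The brighter, A_52_P168028 (75994380 to 75994439), read 6.80, 6.75 and 6.66 in WT hearts and 6.997, 6.68 and 6.13 in TG hearts, so the highest and the lowest heart were both TG. The other, A_52_P118161 (76000484 to 76000543), read 6.52, 6.66 and 6.89 in WT hearts and 6.50, 6.57 and 6.67 in TG hearts. TG replicate 3 was the lowest heart on the first probe and the second highest on the other, so the probes did not order the hearts alike. Their differences were -0.13 (SE 0.22, 95% interval -0.64 to 0.37) and -0.11 (SE 0.16, 95% interval -0.47 to 0.25), with a limma adjusted p of 0.9999 for both. Without TG replicate 3 the difference of the first probe was 0.10, and without TG replicate 1 it was -0.33. The other probe gave -0.01 without WT replicate 3, -0.07 without TG replicate 1 and -0.20 without WT replicate 1.

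Dhcr7, the reductase that makes cholesterol from 7-dehydrocholesterol, was read from A_51_P290986 (mm8, chr7, 143657738 to 143657797). The probe read 9.47, 9.64 and 9.39 in WT hearts and 9.03, 9.78 and 9.002 in TG hearts. TG replicate 2 was the highest of all 6 hearts and the other TG hearts were the lowest, so the TG spread (SD 0.44, n = 3) exceeded that of WT hearts (SD 0.13, n = 3). The mean difference was -0.23 (SE 0.23, 95% interval -0.74 to 0.29, limma adjusted p = 0.9999; exact permutation p = 0.4). It was -0.48 without TG replicate 2, -0.11 without TG replicate 1 and -0.09 without TG replicate 3.

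Insig1 had the lowest difference of the 7, and it rested largely on 1 heart. Probe A_51_P290207 (mm8, chr5, 28408493 to 28408552) read 7.74, 6.80 and 6.97 in WT hearts and 6.81, 6.58 and 6.91 in TG hearts. WT replicate 1 stood far above the rest, and the other 5 hearts lay between 6.58 and 6.97. The difference was -0.40 (SE 0.25, 95% interval -0.97 to 0.17, limma adjusted p = 0.9999; exact permutation p = 0.3), and without WT replicate 1 it was -0.12.

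The 7 probes outside the 20000 were near background and added little. Their differences ranged from -0.18 for Lss to 0.21 for Hmgcs1, and 0 of 7 were well above background on all 6 arrays. The Hmgcs1 probe with the difference of 0.21 was well above background on 0 arrays, so no fold is given for it, although its TG hearts (5.923 to 6.035) all lay above its WT hearts (5.756 to 5.802). The second Insig1 probe, well above background on 2 WT arrays and 1 TG array, read 6.39, 6.13 and 6.14 in WT hearts and 6.10, 6.04 and 6.06 in TG hearts. Its groups did not overlap, with TG lower, by a gap of less than 0.1 on the log2 scale. Of the complete probes among the 20000, 2.73% did not overlap with TG lower and 2.68% with TG higher. The share among probes outside the 20000 was not counted.

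Over the 7 genes the median TG minus WT difference was -0.29, with 6 of 7 means lower in TG hearts, beside a median of 0.03 over all 20000 probes, of which 41.8% had a lower TG mean. With each gene set to 0 at its mean over WT hearts, the median over the 7 was 0.11, -0.14 and -0.08 in WT hearts and -0.32, -0.05 and -0.27 in TG hearts. TG replicate 2 lay within the WT range, and TG replicates 1 and 3 lay below it. Without WT replicate 1 the median difference was -0.13. The extended-range arrays alone (2 TG hearts and 1 WT heart) gave -0.39. The value was -0.07 within the single-scan arrays (1 TG heart and 2 WT hearts) and 0.01 within the slide that carried both groups.

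The scan modes split the genes in different ways. For Insig1 the difference was -0.99 within the extended-range arrays and -0.07 within the single-scan arrays, and for Hmgcs1 it was -0.65 and -0.02. Idi1 went the other way, with 0.23 and -0.94, and Fdft1 gave 0.03 and 0.72. Sqle was lower in both, by -0.43 and -0.27, as was Dhcr7, by -0.08 and -0.48. Lss gave -0.39 and 0.29. Each within-mode value rests on a single heart in 1 of its groups, and none was tested.

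**Figure D2:**
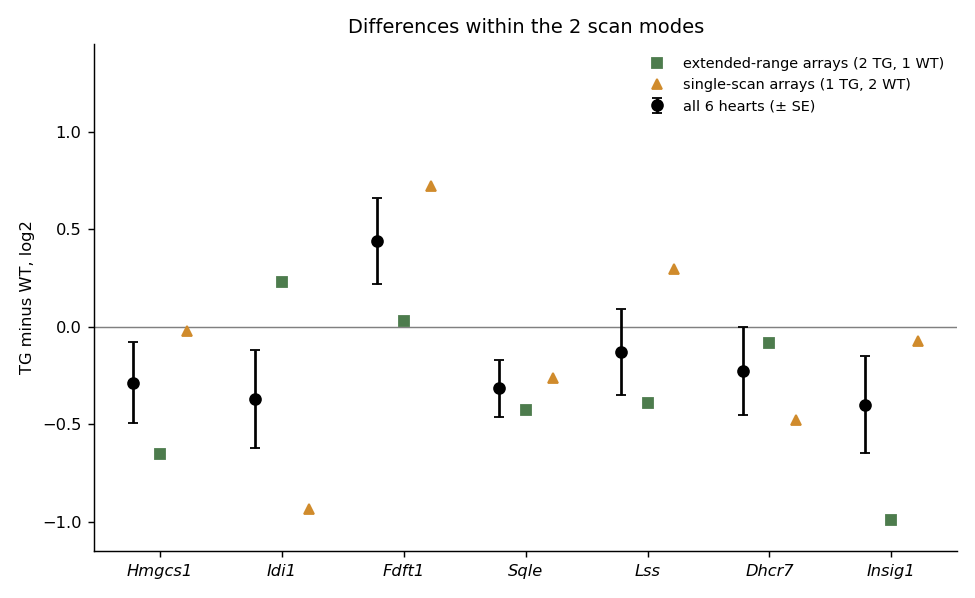
TG minus WT difference on the log2 scale (vertical axis) for each of the 7 genes, over all 6 hearts with the limma standard error (black), within extended-range arrays (green squares) and within single-scan arrays (orange triangles). Fdft1 is above 0 and Hmgcs1, Sqle, Dhcr7 and Insig1 are below 0 in all 3 readings, whereas Idi1 and Lss change sign between the scan modes.

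The 7 genes did not move as one block over the 6 hearts. Over the 21 pairs the median Pearson r was 0.10, against 0.04 over all pairs of complete probes, and 12 of 21 pairs were positive (57.1%) against 52.2% of all pairs. An r above 0.8 was found in 3 of 21 pairs (14.3%), against 6.72% of all pairs. After the mean of each group was subtracted, the median was -0.16, against 0.04 over all pairs. None of the 21 pairs passed Benjamini-Hochberg adjustment, where the smallest adjusted p was 0.10 for Pearson and 0.41 for Spearman correlation, both by two-sided exact permutation of the hearts.

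Hmgcs1, Sqle and Insig1 formed the 3 pairs with an r above 0.8. Hmgcs1 and Insig1 had a Pearson r of 0.87 (exact permutation p = 0.0097, adjusted p = 0.10) and a Spearman rho of 0.89 (p = 0.033, adjusted p = 0.41). Sqle and Insig1 had an r of 0.81 (exact p = 0.0069, adjusted p = 0.10) and a rho of 0.83 (p = 0.058, adjusted p = 0.41). For Hmgcs1 and Sqle the r was 0.85 (exact p = 0.046, adjusted p = 0.24) and the rho 0.60 (p = 0.24, adjusted p = 0.85). WT replicate 1 was the highest heart for all 3 genes and WT replicate 3 the second highest. Without these 2 hearts the r values were 0.54, 0.60 and -0.27 in the same order, so the relation of Hmgcs1 with Sqle rested on them. With the group means subtracted, over all 6 hearts, they were 0.81, 0.82 and 0.94. On that measure Fdft1 also went with the 3 genes, with an r of 0.87 with Insig1, 0.64 with Sqle and 0.59 with Hmgcs1.

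Idi1 and Fdft1, separated in the pathway by farnesyl diphosphate synthase alone, ran in opposite directions. Their r was -0.91 (exact permutation p = 0.028, adjusted p = 0.19) and their rho -0.83 (p = 0.058, adjusted p = 0.41). It was -0.91 without WT replicate 3 and TG replicate 1, and -0.89 with the group means subtracted. Idi1 and Dhcr7 had an r of 0.67 (exact p = 0.17, adjusted p = 0.59), and Fdft1 and Dhcr7 one of -0.72 (exact p = 0.13, adjusted p = 0.53).

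**Figure D3:**
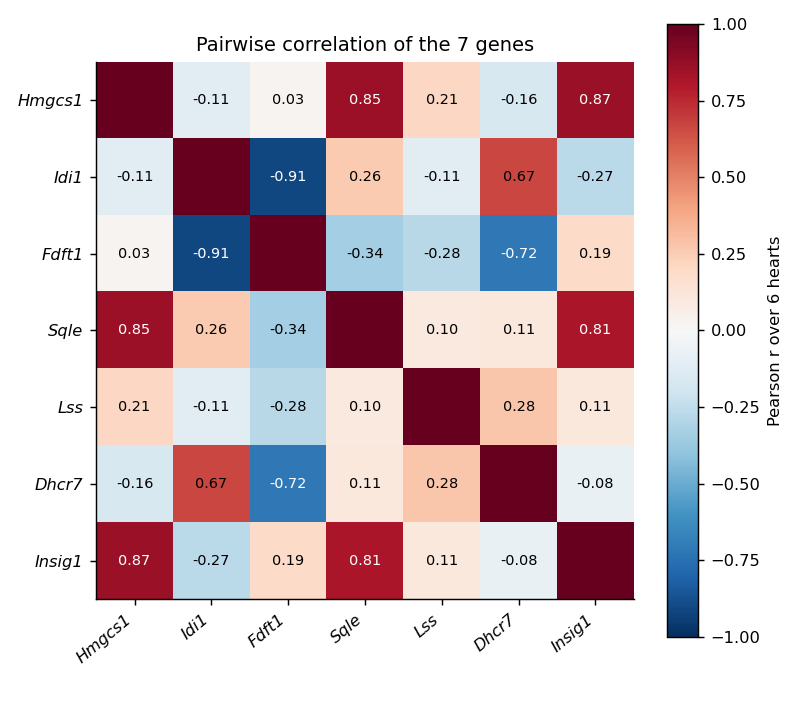
Pearson correlation over the 6 hearts for each pair of the 7 genes, in pathway order with Insig1 last, from -1 (blue) to 1 (red). The 3 pairs among Hmgcs1, Sqle and Insig1 reach 0.81 to 0.87, and Idi1 with Fdft1 gives -0.91.

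The largest axis of the data did not separate the genotypes. The first principal component of all complete probes held 43.3% of the variance, with scores of -25.1, 29.7 and 7.95 in WT replicates 1, 2 and 3 and of -23.5, 33.2 and -22.3 in TG replicates 1, 2 and 3. The 3 hearts with negative scores, WT replicate 1 and TG replicates 1 and 3, had the 3 highest Fdft1 signals (9.79, 9.97 and 10.10) and the 3 lowest Idi1 signals (8.19, 7.88 and 8.19). The same hearts had the highest Alas2, an erythroid enzyme of heme synthesis, at 14.27, 14.02 and 13.92 against 12.66, 12.96 and 11.75 in WT replicates 2 and 3 and TG replicate 2. The other tested erythroid marker, the globin gene Hba-a1, did not split the hearts this way, with 17.75 in WT replicate 2 above 17.35 in TG replicate 3. Of the 4 erythroid markers 2 were tested, and their log2 summed level was 16.96 to 17.96 in WT hearts and 16.48 to 18.07 in TG hearts. The part of blood RNA in the Fdft1 and Idi1 patterns was not tested. With the component as a covariate, chosen after seeing the data, limma gave differences of 0.36 for Fdft1 (SE 0.14) and -0.28 for Idi1 (SE 0.17), with an adjusted p of 0.9996 for both.

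**Figure D4:**
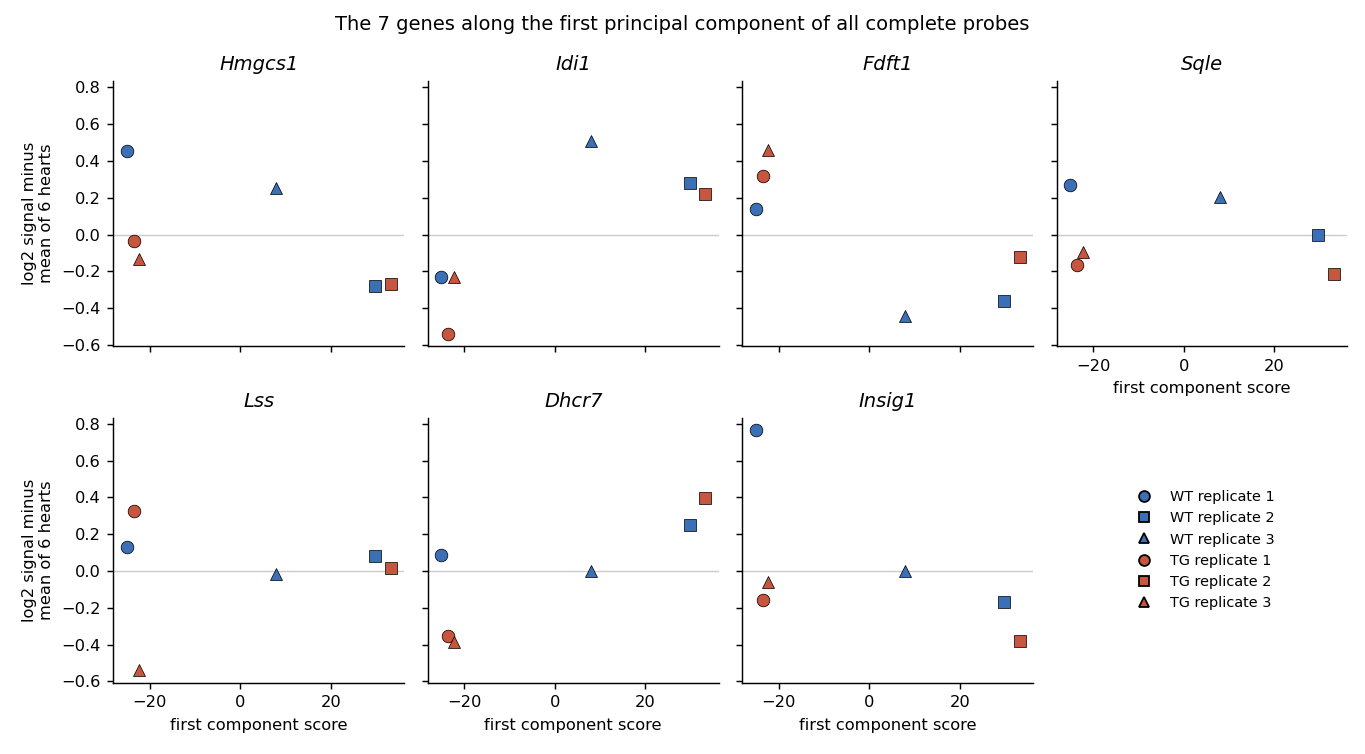
Log2 signal of each of the 7 genes minus its mean over the 6 hearts (vertical axis) against the score of each heart on the first principal component of all complete probes (horizontal axis, no unit), WT in blue and TG in red. Fdft1 is high and Idi1 low in the 3 hearts with scores near -25 to -22, and Sqle shows every TG heart below every WT heart.

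The wider pathway gave the same count as the 7 genes. Of the 21 listed genes from Acat2 to Dhcr7, all 21 were tested and 0 were called in either direction by limma or SAM. Their median difference was -0.16, and 15 of 21 means were lower in TG hearts. Of the 15 that are not among the 7, 10 were lower, with a median of -0.13. Sc5d, a sterol desaturase, read 9.83, 9.65 and 9.68 in WT hearts and 9.05, 9.72 and 9.53 in TG hearts, and its groups overlapped. The difference was -0.29 (SE 0.19, 95% interval -0.74 to 0.15, limma adjusted p = 0.9999).

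Cyp51, the lanosterol demethylase, was the other gene of the list whose groups did not overlap, beside 2.73% of complete probes with TG lower. It read 6.82, 6.90 and 7.14 in WT hearts and 6.77, 6.82 and 6.78 in TG hearts, and WT replicate 1 and TG replicate 2 differed by less than 0.01. Pmvk, a mevalonate pathway kinase, had WT replicate 1 and WT replicate 3 as its highest hearts (11.11 and 10.66), as Hmgcs1 had, while Msmo1, a sterol C4 oxidase, had WT replicates 2 and 3 and TG replicate 2 highest (9.95, 9.91 and 9.86), as Idi1 had. Over the 210 pairs of the list the median r was 0.07, and 6.67% of pairs had an r above 0.8.

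Sterol regulators and uptake genes were not called either. Of the 7 regulators 6 were tested, among them Insig1, which is also 1 of the 7 genes above. All 6 had a lower TG mean, beside 41.8% of all 20000 probes. Limma called 0 of the 6, beside 0.0950% of the 20000 probes lower and 0% higher. Srebf2, which encodes SREBP2, read 10.80, 10.76 and 10.93 in WT hearts and 10.45, 10.76 and 10.71 in TG hearts, a difference of -0.19 (SE 0.15, limma adjusted p = 0.9999). Srebf1 gave -0.30, Scap -0.17, Insig2 -0.04 and the protease gene Mbtps1 -0.02. The other protease gene, Mbtps2, was not among the 20000.

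Of the 10 uptake and intracellular transport genes 9 were tested and 0 were called, with 5 lower and 4 higher TG means and a median of -0.13. Vldlr, a lipoprotein receptor, read 13.65, 14.77 and 14.38 in WT hearts and 13.75, 14.49 and 13.81 in TG hearts, a difference of -0.25 (SE 0.31, 95% interval -0.96 to 0.45, limma adjusted p = 0.9999). Npc2 gave -0.27 and Mylip -0.20. Npc1, which moves cholesterol out of lysosomes, had the highest difference, 0.34 (SE 0.19, limma adjusted p = 0.9999). Among 6 genes of efflux, esterification and LXR signaling 0 were called, with Abca1 at -0.38 and Nr1h2 at 0.30 as the largest differences. The groups of both did not overlap, beside 2.73% of complete probes with TG lower and 2.68% with TG higher.

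**Figure D5:**
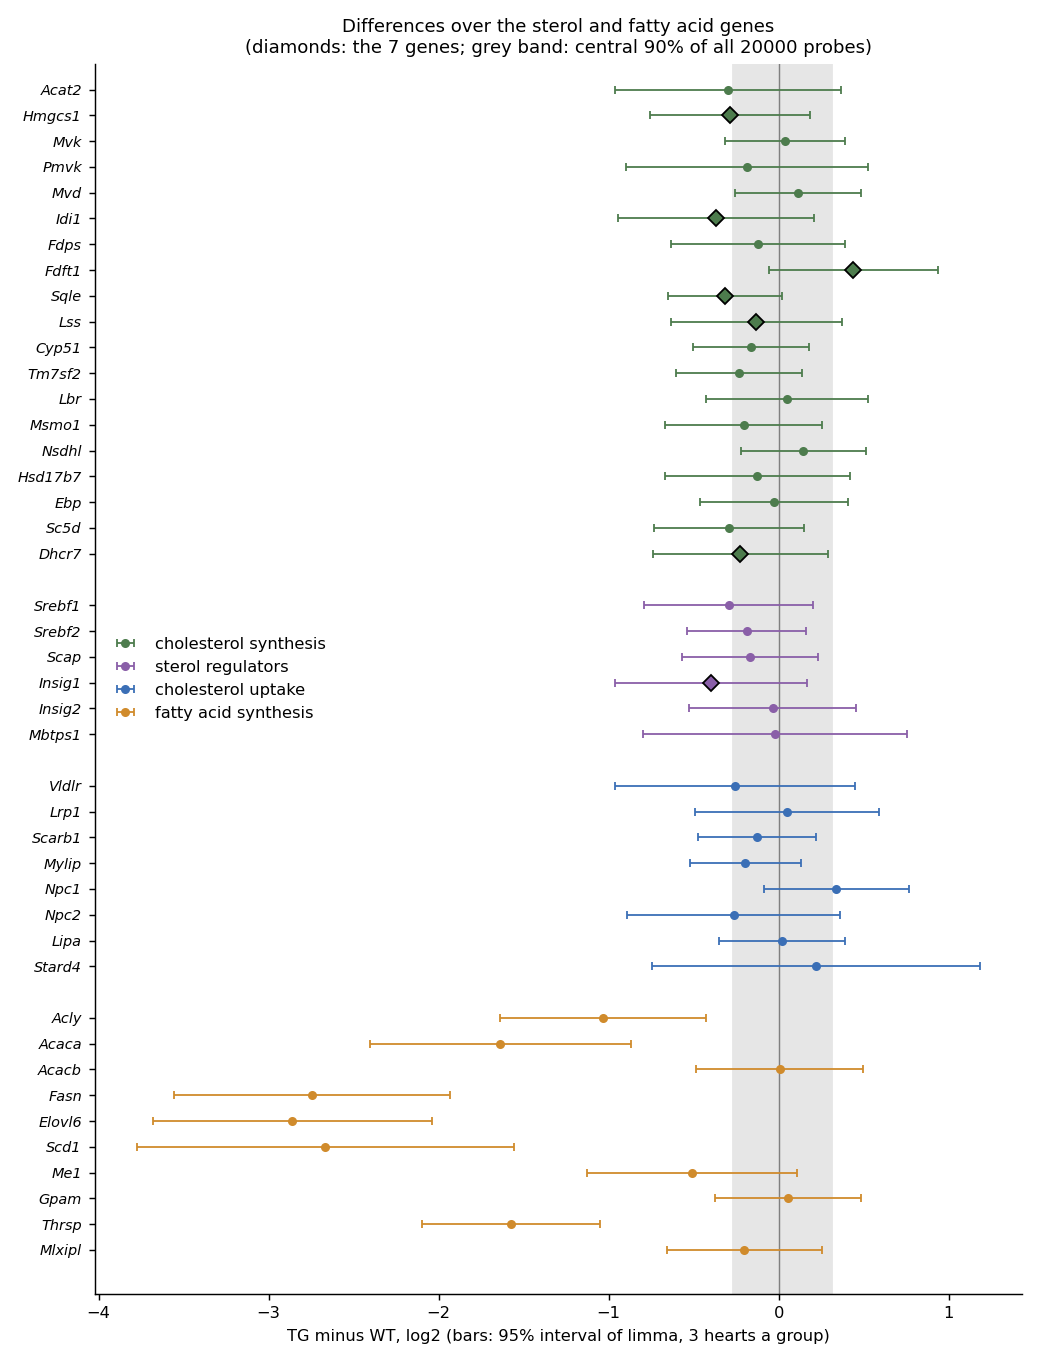
TG minus WT difference on the log2 scale with its 95% limma interval (horizontal axis) for tested genes of cholesterol synthesis, sterol regulation, cholesterol uptake and fatty acid synthesis, with the 7 genes as diamonds. The grey band spans -0.27 to 0.31, the central range of all 20000 probes, and all sterol intervals shown cross 0, whereas those of Fasn, Elovl6, Scd1 and others lie below it.

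The fatty acid synthesis list gave larger differences in the same hearts. Of the 10 listed, all tested, 8 had a lower TG mean, with a median of -1.31, and limma called 2 lower. Fasn, fatty acid synthase, read 16.63, 15.70 and 16.20 in WT hearts and 14.14, 13.40 and 12.76 in TG hearts (difference -2.75, SE 0.36, limma adjusted p = 0.045). Elovl6, a fatty acid elongase, read 10.82, 9.74 and 10.74 against 7.95, 7.88 and 6.89 (difference -2.86, SE 0.36, limma adjusted p = 0.039). SAM called 4, adding Scd1 at -2.67 and Thrsp at -1.58, and over the alternatives tried the count was 0 to 4. Of the 20 alternatives 10 gave a count of 0, among them the authors' table, scan mode as a block and the removal of any single heart other than WT replicate 2. The groups of 6 of the 10 did not overlap, beside 1 of the 7 sterol genes, and the difference between the lists was not tested. Of complete probes, 2.73% had groups that did not overlap with TG lower. Limma called 0.0950% of the 20000 probes lower, and SAM 0.281% of complete probes. In heart tissue, fewer cells of a type and less RNA per cell cannot be told apart.

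Some adipocyte markers were called lower in the same TG hearts. Of 10 adipocyte markers 8 were tested and 3 were called lower by limma, against 0.0950% of the 20000 probes. The groups of all 8 did not overlap, with TG lower, against 2.73% of complete probes. The 8 had a median difference of -1.81, and their log2 summed level was 16.97 to 17.58 in WT hearts and 16.13 to 16.39 in TG hearts. Plin1, the lipid droplet coat protein, differed by -2.25 (SE 0.23, limma adjusted p = 0.034), while Lep and Adig were not among the 20000. Of 8 brown adipocyte markers, of which Cox8b and Cpt1b are also made by heart muscle, 1 was called lower, Ucp1 at -3.23. The 8 had a median difference of -1.24, with Cox8b at -0.08 and Cpt1b at 0.06. Their log2 summed level, in which the brightest probes weigh most, was 16.78 to 17.09 in WT hearts and 16.27 to 16.50 in TG hearts. Sterol synthesis genes are expressed in most cell types, fat cells included, and the part of these markers in the sterol differences was not tested.

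Markers of the heart's own cells were not called. All 10 cardiomyocyte markers, such as Mybpc3 and Myl2, were tested and 0 were called, with a median difference of 0.06. Among 6 endothelial, 4 smooth muscle, 6 fibroblast and epicardial and 5 macrophage markers 0 were called. Limma called only 0.0950% of the 20000 probes lower and 0% higher, so a count of 0 says little about these cells. The TG mean was lower for 1 of 10 cardiomyocyte, 3 of 6 endothelial and 2 of 4 smooth muscle markers. It was lower for 5 of 6 fibroblast and epicardial and 4 of 5 macrophage markers (medians -0.13 and -0.06), beside 41.8% of all 20000 probes. Of the 4 hepatocyte markers, of interest because liver makes much of the body's cholesterol, 0 were among the 20000 probes.

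By Pearson correlation over the 6 hearts with the mean of the centred values of the 7 genes, the most alike genes outside the lists were Ffar2 (r = 0.995), Clmn (0.99), Dusp4 (0.98), Sfxn5 (0.98) and Pgghg (0.98). The mean profile was 0.23, -0.03 and 0.07 in WT hearts and -0.09, -0.05 and -0.14 in TG hearts. Ffar2, a receptor for short-chain fatty acids, read 7.07, 6.51 and 6.72 in WT hearts and 6.31, 6.45 and 6.27 in TG hearts. An r above 0.9 was found for 160 probes, 0.808% of those compared, and over 6 hearts such a rank is a description only.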

How the data were processed

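Expression was measured in 3 WT and 3 TG hearts, 1 array each. The authors deposited spot intensities, per the file headers not normalized between arrays, from Agilent Feature Extraction 9.5.1.1, with probe positions on mm8. A second deposited table held log2 values that the authors had normalized by LOWESS. Here log2 median signals, without control and outlier spots, were set by loess (span 0.3, 4 iterations) to the median array, then averaged over the spots of each probe. The 20000 brightest probes by median were tested. Of these, 15326 were named by RefSeq accession, 3045 by symbol or synonym and 1629 as in the files. Groups were compared with limma 3.58.1 in R 4.3.3 (lmFit, eBayes, Benjamini-Hochberg, threshold 0.05) and with SAM, written from its definition over all 20 assignments. Probes below the 20000 were read from a fit over all 41174. Gene pairs were compared over all 720 orders of the hearts. The first component and the share of pairs used the 19955 probes with a value in every heart. The scripts were tested on simulated data. Named genes were the 7, any gene of the sterol lists, from each other list the 3 with the largest differences and the 2 with the highest signals, and the 5 most alike. Thrsp, Lep, Adig and Cpt1b fall outside this rule and were named after their values were seen. Background correction, normalization, filters, test, threshold, scan mode and each heart were varied. The members and lists were chosen with earlier results of these data known. The number of arrays and the signal over background limit the precision. Some genes of the lists are not reported here one by one and stay in the counts.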

Additional observations from a re-analysis of the deposited data

How the results depend on the processing

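The count of sterol genes called stayed at 0 of 7 in each direction, and at 0 of 21 for cholesterol synthesis, under all 20 alternatives: the mean signal, the background-subtracted signal with 75th percentile scaling, normexp with quantile normalization, quantile or 75th percentile scaling, outlier spots kept, all probes, probes well above background on at least 3 arrays, the authors' table, trend and robust eBayes, SAM, a threshold of 0.1, probes averaged per gene, scan mode as a block, and the removal of any single heart. The median difference of -0.29 ranged from -0.40 with 75th percentile scaling of the background-subtracted signal (-0.33 with this scaling alone) to -0.25 with normexp under other scalings. It moved by more than the spread of the hearts without WT replicate 1, where leaving out 1 heart gave -0.32 to -0.13, within the single-scan arrays (-0.074) and within the slide that carried both groups (0.011, chosen after seeing the data). The cause was not tested. The sign of each of the 7 differences held under the 18 alternatives of the fit, except for Lss, where leaving out 1 heart gave -0.33 to 0.10, the latter without TG replicate 3. With 75th percentile scaling alone and with the same scaling of the background-subtracted signal, in that order, Insig1 gave -0.73 and -0.69, the brighter Lss probe -0.57 and -0.40 and the other -0.41 and -0.35. At 75th percentile scaling Hmgcs1 gave -0.17 and Dhcr7 -0.14. The Lss probes gave -0.24 and -0.05 in the authors' table, the brighter -0.05 with scan mode as a block and the other -0.21 with normexp. The median r of 0.10 ranged from -0.16 to 0.13, with 6 of 18 alternatives below 0. Slide as a random block could not be fitted with 5 slides for 6 arrays, since limma then estimates no correlation. No paired analysis was possible because nothing in the labels ties a WT mouse to a TG mouse. Signals near background on the single-scan arrays limit dim probes such as those of Sqle and Lss.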
